A study of Homo sapiens with 18 samples.

Results

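The set described here is the genes whose response to TRI-611 was measured in both NCI-H3122 and NCI-H2228, and the quantity is the difference between the responses of these lines. For each gene, the TRI-611 minus DMSO value in NCI-H2228 was subtracted from that in NCI-H3122, on log2(TPM + 1), where TPM is the gene's share of transcripts scaled to a fixed library sum. A gene entered where at least 3 of the 6 libraries of each line reached 1 TPM, as 13878 of the 57500 genes of the deposited table did. Below, "the difference" is this quantity: it is negative where a gene fell further, or rose less, in NCI-H3122. Both are established human non-small cell lung cancer lines that carry EML4-ALK fusions, of different breakpoint variants, and TRI-611 is, by the title of the series, a molecular glue that has ALK degraded. The labels give every library the genotype WT, and the study also holds the line SNU2535, which is outside the contrast. The treatment was 3 µM TRI-611, or DMSO, and lasted 3 h. Poly-A RNA was sequenced from 3 libraries of each of the 4 groups, numbered by the labels as batches 1 to 3. Since no label states that the libraries came from separate cultures, the p-values measure only how far these samples spread, and that spread may be technical.

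EML4-ALK is a constitutively active receptor tyrosine kinase fusion that drives the RAS-RAF-MEK-ERK cascade, PI3K-AKT and STAT3 in these tumours. ERK output is read from short-lived transcripts: immediate early transcription factors, and feedback inhibitors such as DUSP phosphatases and Sprouty proteins that damp the same cascade. When AKT is inactive, FOXO transcription factors enter the nucleus and turn on genes of starvation and quiescence. A molecular glue that acts as a degrader recruits a protein to a ubiquitin ligase, for example the one that holds cereblon. The protein rather than its mRNA is then removed.

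A difference was called for 1988 of the 13878 genes (14.3%) by limma's two-sided test at a Benjamini-Hochberg adjusted p under 0.05. Of these, 1247 (8.99% of genes tested) had a larger value in NCI-H3122 and 741 (5.34%) a smaller one. With the batch as a block there were 1802 calls, and with same-batch pairs subtracted within each line 1169 (727 larger and 442 smaller), of which 1051 were among the 1988. The split depended on the scaling: 62.7% of calls were on the larger side with TPM as deposited, 48.0% with median-ratio scaling (1053 and 1143 calls) and 51.5% with quantile normalization. The median difference of all genes tested was 0.05 and that of called genes 0.42 in size. Past a size of 1, a 2-fold change of the ratio, lay 65 genes in each direction. The sign was the same in all 3 batches for 1982 of the 1988. The calls were made on these same libraries, so that agreement largely follows from them and adds no separate support. No minimum size was required for a call, and against a minimum of 0.5 the test called 110 genes, 44 larger and 66 smaller.

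Most called genes responded in one line more than in the other rather than in opposite directions. In the same fit, 5508 genes (39.7%) were called for a response in NCI-H3122 and 2235 (16.1%) in NCI-H2228. Of the genes with a larger value in NCI-H3122, 848 rose there and were not called in NCI-H2228, 202 rose in both lines, 92 fell in NCI-H2228 alone and 50 rose in NCI-H3122 and fell in NCI-H2228. Of those with a smaller value, 410 fell in NCI-H3122 and were not called in NCI-H2228, 222 fell in both, 55 rose in NCI-H2228 alone and 30 went in opposite directions. Responses were wider in NCI-H3122, with an SD across genes of 0.37 against 0.24.

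**Figure D1:**
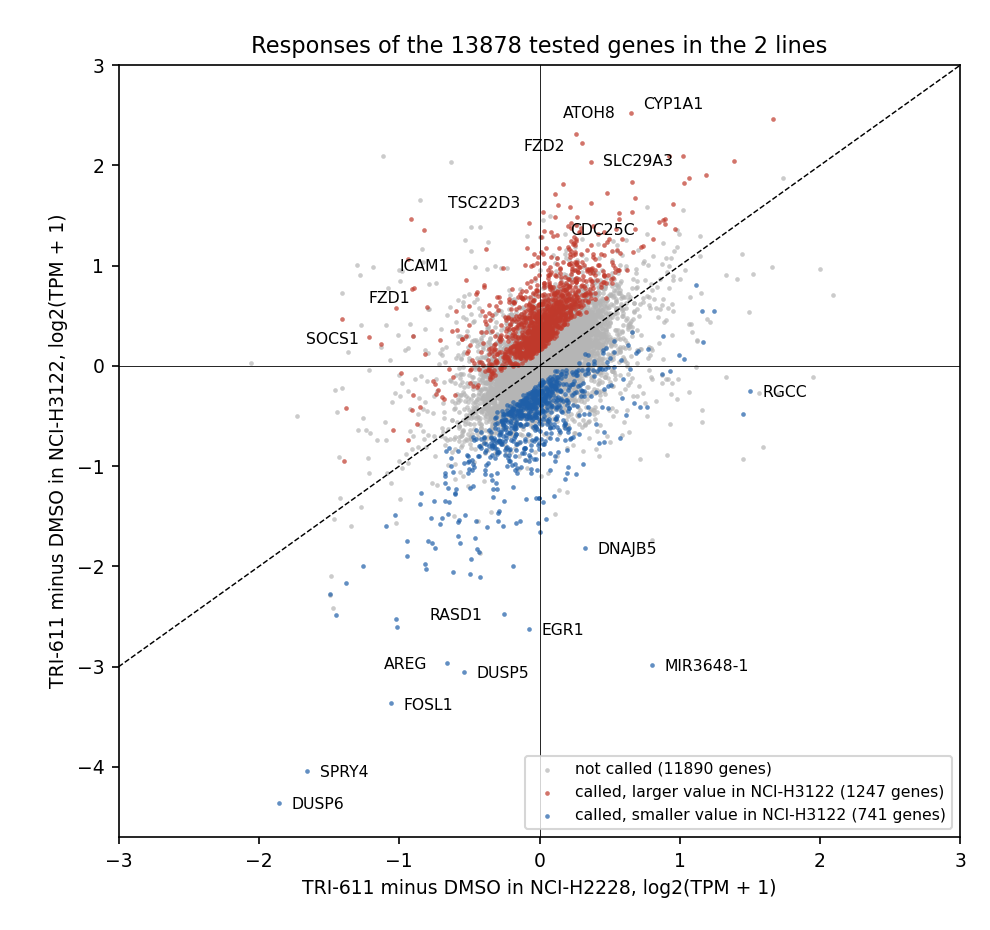
Response to TRI-611 (TRI-611 minus DMSO, log2(TPM + 1), means of 3 libraries each) in NCI-H2228 on the x axis and in NCI-H3122 on the y axis; each point is a gene and the dashed line marks equal responses. DUSP6, SPRY4, FOSL1, DUSP5, AREG and EGR1 lie far below the line, CYP1A1, ATOH8 and FZD2 far above it, and grey points are genes with no call.

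The number of genes above 0 TPM was 23766 to 25921 over the 12 libraries. Libraries of a group correlated at r = 0.990 to 0.992 across genes on log2(TPM + 1). Mitochondrially encoded genes took 8.23% to 15.0% of TPM, most in TRI-611 batch 3 of NCI-H3122, without which 1766 genes were called. Read totals cannot be had from TPM, and the depth is unknown. Summed TPM of 5 epithelial markers was 7341 to 7612 with DMSO and 5869 to 6462 with TRI-611 in NCI-H3122, and 2527 to 2659 and 2233 to 2296 in NCI-H2228. CDH1, which encodes E-cadherin, was at 5.56 to 6.36 TPM in NCI-H2228 against 165 to 202 TPM in NCI-H3122. Of 12 markers of other cells, LUM reached 170 to 212 TPM in NCI-H3122 and COL1A1 361 to 393 TPM in NCI-H2228. The other markers stayed at or below 14.1 TPM in NCI-H3122 and 8.72 TPM in NCI-H2228. DCN was at 0 in every NCI-H2228 library, and PTPRC was at or below 0.129 TPM in both lines. The summed TPM of the 12 was 225 to 229 with DMSO and 190.2 to 199 with TRI-611 in NCI-H3122, and 385 to 408 and 376 to 386 in NCI-H2228. The part of these levels in the differences was not tested.

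Feedback inhibitors of ERK and receptor signalling formed the group with the most genes that fell further in NCI-H3122. Of 24 tested members of the list, 15 were called with a smaller value in NCI-H3122 and 2 with a larger one. That made 70.8% called, beside 14.3% of all genes, and the median difference was -0.51 beside 0.05 for all genes tested. This list and those below were chosen with earlier results of these data known. Their called shares are therefore descriptions, and no list was tested as a set. Within batches 1, 2 and 3 the list's median was -0.63, -0.53 and -0.51. The 10 genes of a MAPK output signature, transcripts that track MEK and ERK activity in tumours, all had negative differences, 9 of them called, with a median of -0.56. By the within-line pairs these counts were 12 and 6. The feedback list and the signature share genes, among them DUSP6 and SPRY4, so their counts are not independent.

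DUSP6 (ENSG00000139318, GRCh38 chromosome 12, 89347232 to 89353271) encodes the phosphatase that inactivates ERK in the cytoplasm. It measured 250.4, 242 and 237 TPM with DMSO and 12.9, 9.64 and 10.3 TPM with TRI-611 in NCI-H3122. In NCI-H2228 it was at 15.6, 14.1 and 15.8 TPM and then 3.23, 3.77 and 3.40 TPM. Groups were well apart in both lines, and the DMSO level in NCI-H3122 was also the highest of the 4 groups. The difference was -2.50 ± 0.12 (SE, adjusted p = 6.68e-08), from responses of -4.36 and -1.86. SPRY4 (chromosome 5, 142310427 to 142326455), a Sprouty inhibitor of receptor signalling upstream of RAS, had DMSO levels within 2-fold of each other in the lines, 26.2, 24.8 and 24.8 TPM in NCI-H3122 and 16.6, 17.0 and 17.0 TPM in NCI-H2228. With TRI-611 it fell to 0.665, 0.518 and 0.603 TPM in NCI-H3122 and to 4.86, 4.26 and 4.93 TPM in NCI-H2228. In NCI-H3122 all TRI-611 libraries lay below 1 TPM, so the gene passed the filter there through its DMSO libraries alone. Its difference was -2.38 ± 0.10 (adjusted p = 1.69e-08) and shrank to -1.26 with a pseudocount of 5.

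DUSP5, the phosphatase that holds ERK inactive in the nucleus, had the smallest adjusted p of all genes tested. It went from 133, 137 and 138 TPM to 16.3, 15.0 and 15.3 TPM in NCI-H3122, and from 64.8, 63.5 and 69.1 TPM to 40.9, 45.5 and 48.8 TPM in NCI-H2228. The fall in NCI-H2228 also passed the test, and the difference was -2.51 ± 0.08 (adjusted p = 3.91e-09). PHLDA1, a pleckstrin-homology protein in the MAPK signature, fell in both lines, by 2.49 and 1.45 on the log2 scale, with a difference of -1.03 ± 0.07 (adjusted p = 9.03e-07). EPHA2, a receptor tyrosine kinase of the same signature, differed by -0.78 ± 0.09 and EPHA4 by -0.65 ± 0.12 (adjusted p = 8.5e-05 and 0.00212). ETV5, an ETS factor induced by ERK, differed by -0.46 ± 0.11, a call that was lost with within-line pairs (adjusted p = 0.0516) and with a pseudocount of 5 (adjusted p = 0.111). ETV4 did not pass at -0.11.

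Other feedback genes, singled out after their values were seen, followed the same order of lines. ERRFI1, which binds and inhibits EGFR, had means of 440.5 ± 4.04 and 144 ± 4.18 TPM (SD, n = 3 each) with DMSO and TRI-611 in NCI-H3122. It had 449.9 ± 18.1 and 348 ± 25.8 TPM in NCI-H2228, a difference of -1.24 ± 0.07 from DMSO levels that were close together. SPRED1, a brake on RAS, differed by -0.82 ± 0.07 and DUSP4, another ERK phosphatase, by -0.45 ± 0.06. The lone members of the feedback list with called positive differences were LRIG1, which promotes receptor degradation, at 0.54 ± 0.13 and DUSP1 at 0.38 ± 0.11. Both calls were lost with within-line pairs, among other settings (adjusted p = 0.059 and 0.128).

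**Figure D2:**
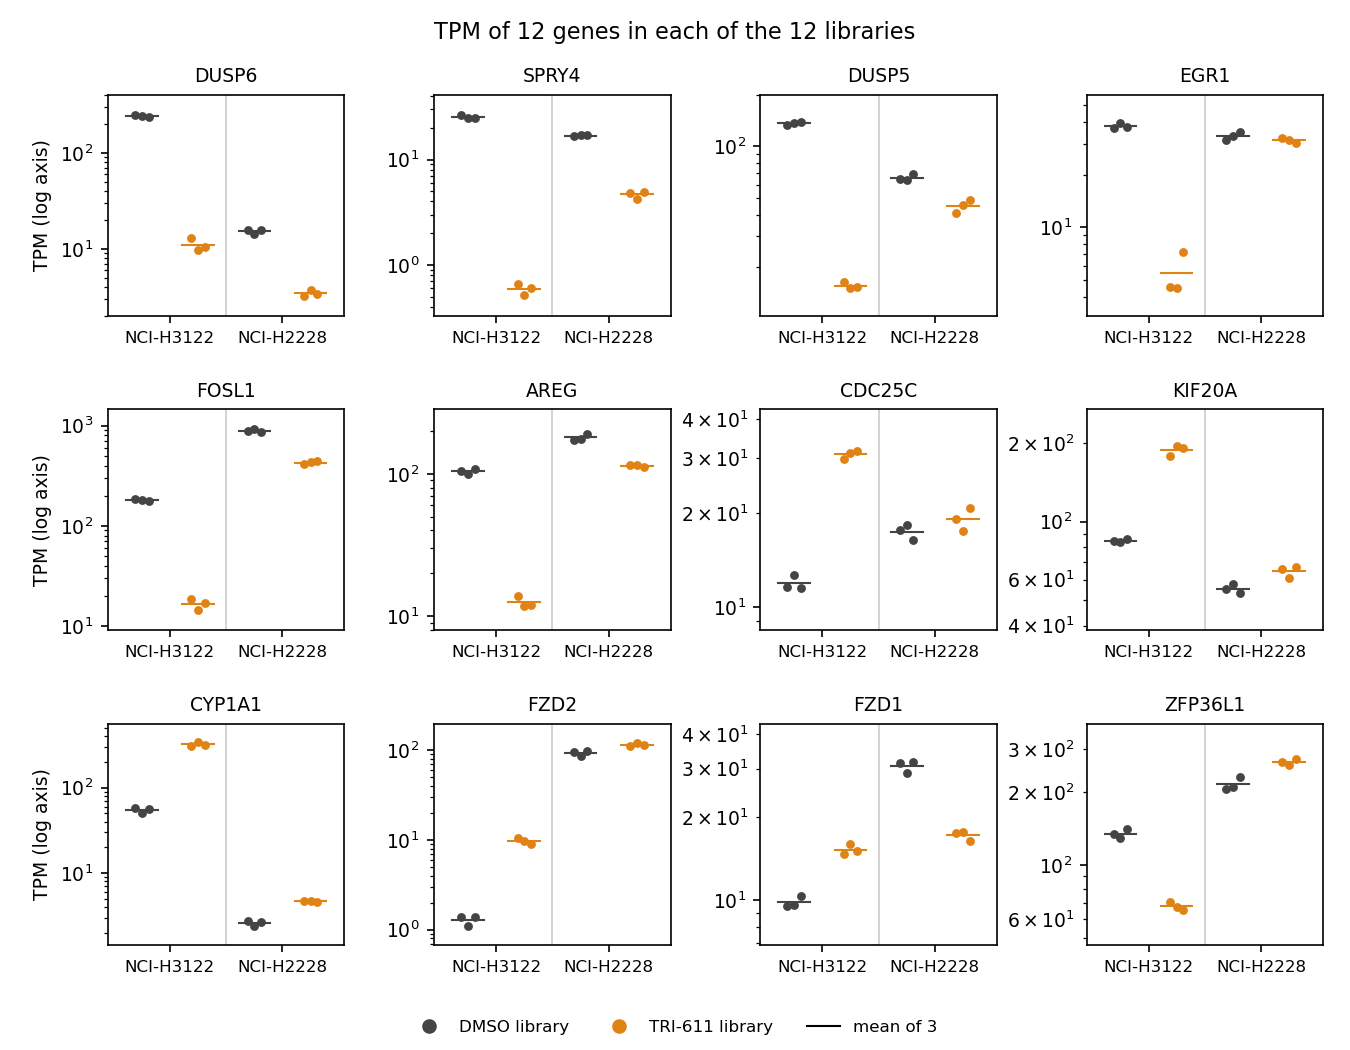
TPM on log axes of 12 genes in each of the 12 libraries, with DMSO and TRI-611 groups side by side for each line, a point per library and a line at each mean. DUSP6, SPRY4, DUSP5, EGR1, FOSL1 and AREG drop further in NCI-H3122, CDC25C, KIF20A, CYP1A1 and FZD2 climb further there, and FZD1 and ZFP36L1 move in opposite directions in the lines.

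Immediate early transcription factors, which are transcribed within minutes of growth factor signalling, split in both directions. Of 26 tested members, 10 were called with smaller and 6 with larger values in NCI-H3122 (61.5%, beside 14.3% of all genes). The median difference was -0.12. EGR1 (ENSG00000120738, chromosome 5, 138465490 to 138469315), a zinc-finger factor whose promoter is a textbook target of ERK-phosphorylated ETS factors bound beside SRF, showed the largest difference among them. Its promoter is printed because it holds those SRF sites: the 200 bases before the RefSeq start hold 2 CArG boxes, the sites that SRF binds, starting at -105 and -83 and given in capitals (GRCh38.p14, chr5:138465279-138465478, plus strand).
EGR1: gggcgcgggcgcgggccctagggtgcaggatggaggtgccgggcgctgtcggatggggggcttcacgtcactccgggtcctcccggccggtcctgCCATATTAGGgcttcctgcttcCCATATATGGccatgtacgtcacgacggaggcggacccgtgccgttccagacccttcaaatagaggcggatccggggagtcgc

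EGR1 stood at 37.0, 39.7 and 37.4 TPM with DMSO and 4.56, 4.50 and 7.26 TPM with TRI-611 in NCI-H3122, against 31.4, 33.3 and 35.0 TPM and 32.5, 31.5 and 30.4 TPM in NCI-H2228. The lines began at close levels, the groups of NCI-H2228 overlapped, and the difference was -2.55 ± 0.18 (adjusted p = 2.67e-06). In windows from 250 bases before to 50 after the start, CArG boxes, searched on either strand, were found in 2 of 20 immediate early genes with a RefSeq window (10.0%) and in 1.6% of all 27305 genes with one. FOSL1, a partner of JUN in AP-1, went from 184, 181 and 176 TPM to 18.7, 14.5 and 16.9 TPM in NCI-H3122. In NCI-H2228 it was more abundant, 891, 916 and 873 TPM with DMSO and 413, 431 and 439 TPM with TRI-611, and the difference was -2.31 ± 0.09 (adjusted p = 1.69e-08). MAFF, a small MAF factor, fell in both lines and differed by -1.44 ± 0.11 (adjusted p = 2.6e-06; -0.75 with a pseudocount of 5).

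Members of the list with no call included JUN, at 0.01 ± 0.07 (adjusted p = 0.974) and responses of -0.70 in each line, and FOS, whose libraries varied and whose difference was -0.11 ± 0.41. The called positive members included FOSL2, which rose in NCI-H3122 and fell in NCI-H2228 with a difference of 0.68 ± 0.07, ATF3 at 0.63 ± 0.11 and MYC. MYC fell in both lines, from 421 ± 5.40 to 271 ± 5.67 TPM in NCI-H3122 and from 119.6 ± 5.78 to 57.5 ± 1.13 TPM in NCI-H2228 (SD, n = 3 each). It fell further in NCI-H2228, with a difference of 0.41 ± 0.05 (adjusted p = 0.000196). The order of the lines was thus the reverse of that for DUSP6, SPRY4 and EGR1. KLF6, a zinc-finger factor of the growth factor response, fell by 0.87 in NCI-H3122 and was not called in NCI-H2228 (-0.11), a difference of -0.76 ± 0.06 (adjusted p = 2.6e-06).

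Ligands of EGFR fell further in NCI-H3122, while 3 other growth factor genes had larger values there. Of 9 tested members of the ligand list, 4 were called with smaller and 3 with larger values (77.8%), with a median of -0.56. AREG, which encodes amphiregulin, went from 105, 100.4 and 109 TPM to 13.8, 11.8 and 12.0 TPM in NCI-H3122 and from 174, 177 and 192 TPM to 115, 115 and 112 TPM in NCI-H2228. Its difference was -2.30 ± 0.08 (adjusted p = 3.92e-09), with DMSO levels that were higher in NCI-H2228. EREG, its neighbour in the EGF family, differed by -1.59 ± 0.08 (adjusted p = 8.9e-08) and TGFA by -0.56 ± 0.08. HBEGF differed by -0.78 ± 0.12 from levels that were unlike in the lines, but with a pseudocount of 5 by -0.04 with no call (adjusted p = 0.825). The members with larger values, named after they were seen, were FGF9 at 0.66, FGFBP1, a carrier of FGFs, at 0.46, and KITLG, the ligand of KIT, at 0.30; FGF9 passed the filter through 1 group of a line alone. Among 18 receptor tyrosine kinases, 5 had larger and 4 smaller values. EGFR itself differed by -0.40 ± 0.06, and ERBB3, a receptor gene known to rise when AKT or MEK is inhibited, by 0.61 ± 0.09: ERBB3 rose in both lines, by 0.95 in NCI-H3122 and 0.34 in NCI-H2228. KSR1, the scaffold that assembles RAF, MEK and ERK, differed by 0.71 ± 0.12 (adjusted p = 0.00133), one of 3 called among 24 genes of ALK adaptors and the cascade, beside IRS1 (-0.55 ± 0.11) and IRS2 (-0.51 ± 0.11). That share of 12.5% was near the 14.3% of all genes.

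Genes of plasminogen activation and cell adhesion, which invasive tumour cells express, were called lower in 12 of 24 cases and higher in 3. The called share was 62.5%, beside 14.3% of all genes, and the median difference was -0.27. MMP1, a collagenase, measured 389, 353 and 359.7 TPM with DMSO and 129.7, 125 and 96.3 TPM with TRI-611 in NCI-H3122. In NCI-H2228 its groups overlapped, at 31.5, 34.5 and 33.5 TPM and 34.8, 31.7 and 33.5 TPM, and the difference was -1.66 ± 0.13 (adjusted p = 8.06e-06). THBS1, which encodes thrombospondin, had near-equal DMSO levels in the lines, 312 ± 8.09 and 296 ± 3.64 TPM (SD, n = 3 each). It fell to 125 ± 10.9 TPM in NCI-H3122 and stood at 296 ± 9.19 TPM in NCI-H2228, a difference of -1.32 ± 0.07 (adjusted p = 1.33e-07). PLAU, the urokinase plasminogen activator, fell in both lines and differed by -1.25 ± 0.05. F3, tissue factor, fell in both and differed by -1.07 ± 0.07 (adjusted p = 4.76e-07). ITGA2, the collagen-binding integrin chain named after its value was seen, differed by -0.79 ± 0.07. The members with larger values were the laminin genes LAMA5 at 0.51 and LAMB3 at 0.20, and THBD, thrombomodulin, at 0.44.

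Genes of G2 and M phase formed the largest group with the opposite sign. Of 50 tested members, 39 were called with larger values in NCI-H3122 and 0 with smaller ones at this threshold (78.0%, beside 14.3% of all genes). The median difference was 0.39 (0.32, 0.52 and 0.36 in batches 1, 2 and 3). The median response was 0.52 in NCI-H3122 and 0.13 in NCI-H2228. In NCI-H3122 47 of the 50 rose and 0 fell. In NCI-H2228 20 rose and 2 fell. The count was 37 with median-ratio scaling, 40 with quantile normalization and 28 with within-line pairs. In bulk libraries a larger share of cells in G2 or M phase and more of this RNA per cell cannot be told apart.

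CDC25C (ENSG00000158402, chromosome 5, 138285265 to 138338355), the phosphatase that activates CDK1 at mitotic entry, showed the largest difference of the list. It went from 11.6, 12.7 and 11.5 TPM to 29.8, 31.2 and 31.5 TPM in NCI-H3122, while the NCI-H2228 groups overlapped at 17.6, 18.3 and 16.3 TPM and 19.1, 17.5 and 20.8 TPM. The difference was 1.17 ± 0.09 (adjusted p = 3.27e-06). CDC25B, which acts earlier on the same kinase, rose from 45.2, 44.1 and 45.1 TPM to 70.9, 82.0 and 78.0 TPM in NCI-H3122 and fell from 292, 280.1 and 290.3 TPM to 253, 251 and 249 TPM in NCI-H2228. Its difference was 0.96 ± 0.06 (adjusted p = 5.94e-07). PIF1, a DNA helicase made in late S and G2 phase, differed by 0.96 ± 0.22 (adjusted p = 0.0119).

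Further members were named after their values were seen. KIF20A, a kinesin of cytokinesis, rose from 84.4 ± 0.917 to 188 ± 8.44 TPM in NCI-H3122 and from 55.3 ± 2.21 to 64.7 ± 3.13 TPM in NCI-H2228 (SD, n = 3 each), a difference of 0.92 ± 0.06. NEK2, a centrosome kinase, differed by 0.84 ± 0.07, CCNB2, a mitotic cyclin, by 0.71 ± 0.08, PLK1, a mitotic kinase, by 0.57 ± 0.04, and FOXM1, a factor that drives this programme, by 0.32 ± 0.05. PLK1 had equal DMSO means of 157 TPM in both lines. Members with differences of 0.02 or lower were AURKB at -0.11, PIMREG at -0.06 and ECT2 at 0.02, and none of these passed.

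**Figure D3:**
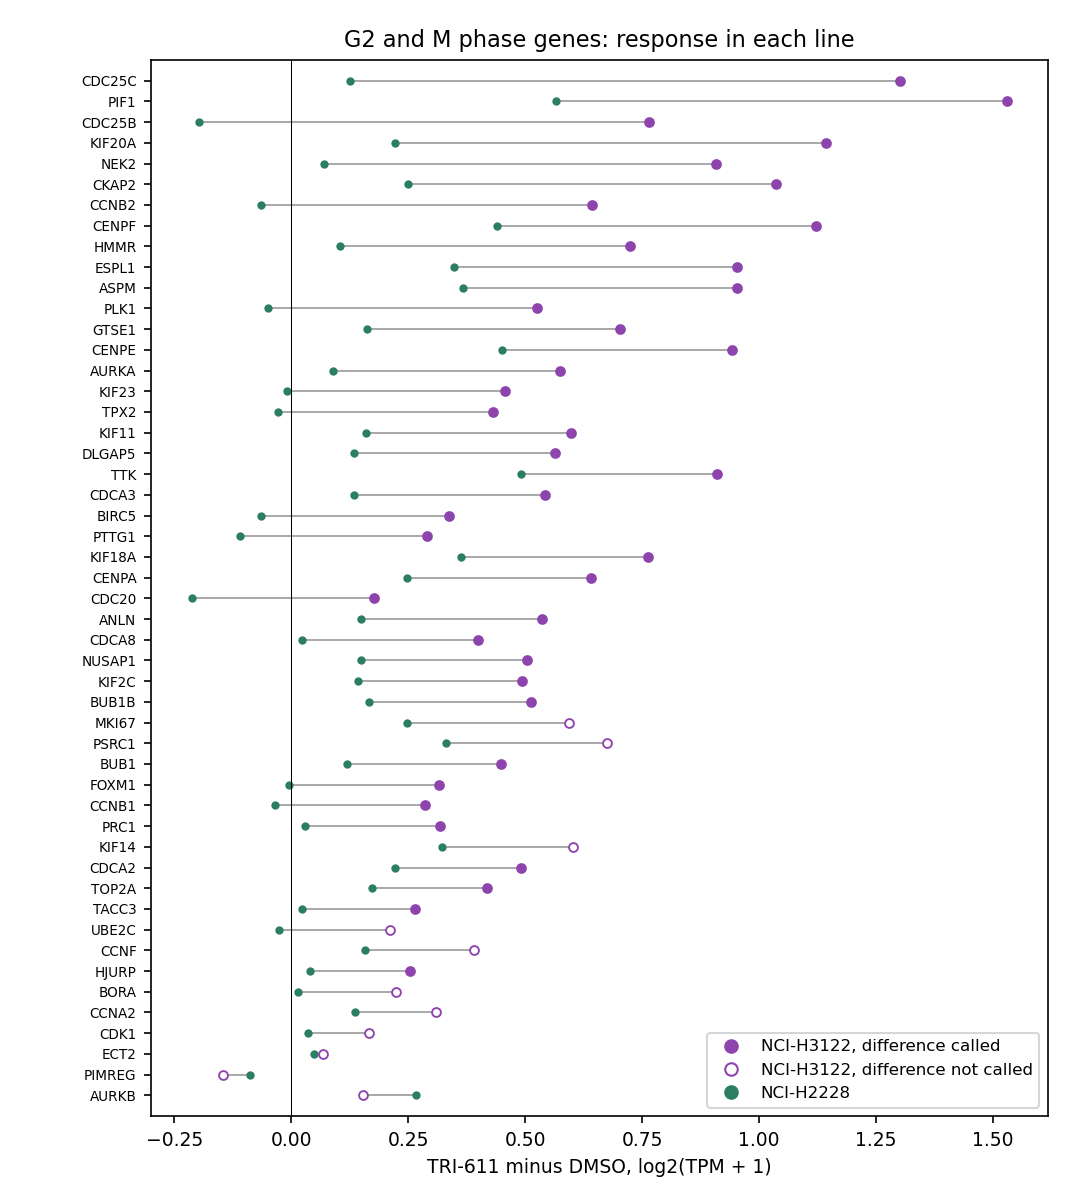
Response to TRI-611 (log2(TPM + 1), x axis) of the 50 tested genes of G2 and M phase in NCI-H3122 (purple, filled where the difference was called) and NCI-H2228 (green), ordered by the difference. The purple point lies to the right of the green one in 48 of the 50 genes, and CDC25C, PIF1 and CDC25B are at the top.

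Many promoters of this list hold the same short element. The cell cycle genes homology region, TTTGAA on either strand, is bound by the DREAM and MuvB complexes that time G2 and M transcription. It occurred within windows from 250 bases before to 50 after the start in 29 of the 42 G2 and M phase genes with a RefSeq window (69.0%). It occurred in 13.2% of the 9180 tested genes with one, in 18.2% of all 27305 genes and in 2 of 35 G1/S genes (5.71%). Within the list, 23 of 33 called genes (69.7%) and 6 of 9 genes not called (66.7%) held it. A match is a description of the letters and not of binding. The 200 bases before the start are given for CDC25C, PIF1 and CCNB2. These had the largest differences among called genes of the list that hold the element, with a single chromosome left out of the choice. They are therefore not typical members. The element stands in capitals at -30, -20 and -29. CDC25C has several annotated starts, and the window shown is the one with the element before its start. They come from RefSeq on GRCh38.p14, CDC25C from the minus strand of chr5:138331805-138332004, PIF1 from the minus strand of chr15:64825648-64825847 and CCNB2 from the plus strand of chr15:59104946-59105145.
CDC25C: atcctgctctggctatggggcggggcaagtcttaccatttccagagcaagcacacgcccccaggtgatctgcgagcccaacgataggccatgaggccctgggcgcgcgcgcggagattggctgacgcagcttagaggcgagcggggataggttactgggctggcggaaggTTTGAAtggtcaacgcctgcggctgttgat
PIF1: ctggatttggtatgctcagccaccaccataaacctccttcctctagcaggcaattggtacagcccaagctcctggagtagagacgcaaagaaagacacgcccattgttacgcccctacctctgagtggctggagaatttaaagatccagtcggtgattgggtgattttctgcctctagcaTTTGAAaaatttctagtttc
CCNB2: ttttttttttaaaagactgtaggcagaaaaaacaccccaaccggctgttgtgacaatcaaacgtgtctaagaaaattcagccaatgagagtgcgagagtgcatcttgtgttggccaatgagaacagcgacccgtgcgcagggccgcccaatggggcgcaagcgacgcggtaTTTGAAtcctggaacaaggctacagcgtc

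The preceding phases were read from another list. Of 40 tested genes of G1/S and DNA replication, 6 had larger and 2 smaller values in NCI-H3122, with a median of 0.08. The called share was 20.0%, beside 14.3% of all genes and 16.7% of protein-coding genes. MCM2, a subunit of the replicative helicase, differed by 0.32 ± 0.06 (adjusted p = 0.00168). Of 11 tested cyclin-dependent kinase inhibitors and D cyclins, 3 had larger and 2 smaller values (45.5% called). CDKN1A, which encodes p21, stood at 279.8, 258 and 249.5 TPM and 242, 245 and 220.4 TPM in NCI-H3122, where its groups differed too little for a call. It fell from 104, 106 and 105 TPM to 65.1, 63.5 and 56.4 TPM in NCI-H2228, a difference of 0.61 ± 0.08 (adjusted p = 0.000317). CDKN2D, which encodes p19 of the INK4 family, rose in NCI-H3122 and fell in NCI-H2228, with a difference of 1.18 ± 0.15 (adjusted p = 0.000238). CDKN2C, its relative p18, rose in both and differed by 0.70 ± 0.07. CDKN1C, which encodes p57, went the other way at -0.60 ± 0.11. CCND1, cyclin D1, fell in both lines and slightly further in NCI-H3122 at -0.18 ± 0.05 (adjusted p = 0.0207), a call lost with within-line pairs (adjusted p = 0.105). CDKN1B, which encodes p27, rose in both lines by 0.87 and 0.86 and was not called at 0.01.

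FOXO factors and their targets rose in both lines, 29 of 37 tested members in NCI-H3122 and 23 in NCI-H2228, and more of them had larger values in NCI-H3122. Of the 37, 15 were called with larger and 6 with smaller values in NCI-H3122 (56.8%, beside 14.3% of all genes), with a median of 0.33. The median response was 0.70 in NCI-H3122 and 0.39 in NCI-H2228. TSC22D3, which encodes the glucocorticoid-induced leucine zipper, went from 10.1, 8.16 and 8.16 TPM to 27.3, 30.3 and 24.9 TPM in NCI-H3122. In NCI-H2228 it was at 10.2, 9.98 and 11.2 TPM and 11.1, 10.0 and 10.9 TPM, with overlapping groups, and the difference was 1.51 ± 0.13 (adjusted p = 4.8e-06). PIK3IP1, an inhibitor of PI3K at the membrane, rose from 0.875, 1.08 and 1.03 TPM to 8.14, 7.06 and 7.31 TPM in NCI-H3122 and from 1.20, 1.54 and 1.41 TPM to 3.75, 3.41 and 3.41 TPM in NCI-H2228. DMSO levels were alike and low, and the difference was 1.17 ± 0.16 (adjusted p = 0.000271; 0.64 with a pseudocount of 5). FOXO6 differed by 1.12 ± 0.19 (adjusted p = 0.00141). FOXO3, named after its value was seen, differed by 0.33 ± 0.06, and FOXO1 did not pass at 0.11.

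Of 20 brakes of mTORC1 and amino acid sensors, 4 had larger and 2 smaller values in NCI-H3122 (30.0% called, beside 14.3% of all genes). The smaller values were those of DEPTOR, an inhibitor bound to mTOR, at -0.52 ± 0.13 and EIF4EBP2, a translation repressor that mTORC1 inactivates, at -0.31 ± 0.05. SESN1, a leucine-sensing inhibitor of mTORC1, rose by 0.88 in NCI-H3122 and was not called in NCI-H2228 (-0.03), a difference of 0.91 ± 0.13 (adjusted p = 0.000347). ULK1, the kinase that starts autophagy, differed by 1.03 ± 0.09 (adjusted p = 5.74e-06), GABARAPL1, an autophagosome protein, by 0.82 ± 0.13 and MITF, a lysosomal transcription factor, by 0.74 ± 0.13. Over the 31 autophagy and lysosome genes, 6 had larger and 0 smaller values at this threshold, 19.4% called beside 14.3% of all genes. The share of protein-coding genes called was 16.7%, and with a filter at 5 TPM 1848 of 9600 genes were called. The share of the autophagy list is therefore not set apart from that of genes at such levels. CASTOR2, which pairs with the arginine sensor CASTOR1, differed by 0.66 ± 0.14, but the call was lost with a pseudocount of 5 (adjusted p = 0.947). The negative members of the FOXO list included TRIB1, a pseudokinase that destabilises C/EBP proteins, at -0.80 ± 0.07 and IRS2 at -0.51 ± 0.11. Of 16 genes of the BCL2 family, which sets the threshold of apoptosis, 2 had larger and 1 a smaller value, a called share of 18.8% near the 14.3% of all genes. The 3 values are those of single genes. BCL2L11, which encodes BIM, is held down by ERK and AKT and differed by 0.40 ± 0.09 (adjusted p = 0.0103). BBC3, which encodes PUMA, differed by 0.58 ± 0.13 (adjusted p = 0.00895; 0.0733 with a pseudocount of 0.1). MCL1, a survival protein of the same family, fell in NCI-H3122 from 1932 ± 62.8 to 998 ± 37.2 TPM and fell from 285 ± 2.29 to 201 ± 6.38 TPM in NCI-H2228 (SD, n = 3 each). Its difference was -0.45 ± 0.05 (adjusted p = 6.98e-05).

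The aryl hydrocarbon receptor is a ligand-activated factor that induces xenobiotic metabolism. Of 8 tested members of its list, 4 were called with larger and 1 with smaller values in NCI-H3122 (62.5%, beside 14.3% of all genes). The median was 0.26. CYP1A1 (ENSG00000140465, chromosome 15, 74719542 to 74725610), the most sensitive target of the receptor, went from 58.4, 50.9 and 57.0 TPM to 309, 339 and 320.4 TPM in NCI-H3122. In NCI-H2228 it lay far lower, at 2.78, 2.40 and 2.65 TPM and then 4.71, 4.70 and 4.59 TPM, and rose there too. The difference was 1.87 ± 0.09 (adjusted p = 3.41e-08). CYP1B1, also induced by the receptor, was the more abundant in NCI-H2228. It rose from 65.4 ± 1.34 to 128 ± 4.19 TPM in NCI-H3122 and from 644 ± 6.73 to 776 ± 40.6 TPM in NCI-H2228 (SD, n = 3 each), a difference of 0.69 ± 0.06 (adjusted p = 3.27e-06). AHRR, the repressor that the receptor induces against itself, differed by 0.82 ± 0.13 (adjusted p = 0.00102). The member with a smaller value was AHR itself, which fell in NCI-H3122 and rose in NCI-H2228, at -0.57 ± 0.09. NQO1 (0.08) and TIPARP (-0.15) did not pass.

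The receptor binds the core GCGTG, and the window from 250 bases before to 50 after the start held it, on either strand, in 5 of the 6 genes of this list with a RefSeq window (83.3%), in 59.2% of tested genes and in 40.6% of all genes. The CYP1A1 promoter is printed because that gene had the largest rise of the list; its known enhancer lies further upstream than the 200 bases given, in which the core stands in capitals at -57 (RefSeq, GRCh38.p14, minus strand of chr15:74725529-74725728).
CYP1A1: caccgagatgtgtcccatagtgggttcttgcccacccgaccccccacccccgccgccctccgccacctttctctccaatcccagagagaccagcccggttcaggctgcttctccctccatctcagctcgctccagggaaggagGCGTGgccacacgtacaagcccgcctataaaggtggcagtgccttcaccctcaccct

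Receptors and regulators of developmental pathways held some of the largest differences of single genes, while the medians of the Wnt and BMP lists lay near that of all genes. FZD2, a Wnt receptor, went from 1.37, 1.11 and 1.39 TPM to 10.4, 9.66 and 8.93 TPM in NCI-H3122 and from 94.2, 86.8 and 97.1 TPM to 110.3, 120.4 and 113 TPM in NCI-H2228. The difference was 1.92 ± 0.10 (adjusted p = 8.4e-08) and 0.93 with a pseudocount of 5, and with TRI-611 NCI-H3122 remained below every NCI-H2228 library. FZD1 (ENSG00000157240, chromosome 7, 91264364 to 91271326), its relative, rose from 9.48, 9.62 and 10.4 TPM to 14.7, 16.0 and 15.1 TPM in NCI-H3122 and fell from 31.4, 28.9 and 31.7 TPM to 17.6, 17.6 and 16.3 TPM in NCI-H2228. The DMSO levels of FZD1 stood apart between the lines and the TRI-611 levels lay close, with a difference of 1.39 ± 0.08 (adjusted p = 2.58e-07). DKK1, a secreted Wnt inhibitor, fell in NCI-H3122 and had a response of -0.01 in NCI-H2228, at -0.82 ± 0.11 (adjusted p = 0.000271). Over 17 Wnt genes 3 had larger and 4 smaller values (41.2% called, beside 14.3% of all genes), and the median was 0.05.

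Among 24 genes of TGF-beta, BMP and ID, 5 had larger and 5 smaller values (41.7% called, beside 14.3% of all genes). ATOH8, a helix-loop-helix factor induced by BMP, went from 0.274, 0.289 and 0.322 TPM to 5.48, 6.09 and 4.76 TPM in NCI-H3122 and from 11.6, 10.2 and 12.0 TPM to 14.4, 13.8 and 12.7 TPM in NCI-H2228. It passed the filter in NCI-H3122 through its TRI-611 libraries alone, and its difference of 2.05 ± 0.13 became 0.78 with a pseudocount of 5 and 3.53 with 0.1. SMAD6, the inhibitory SMAD of the BMP pathway, rose from 2.50, 2.58 and 2.27 TPM to 6.64, 7.40 and 6.31 TPM in NCI-H3122, with overlapping groups at 21.2, 22.8 and 26.1 TPM and 23.3, 20.3 and 22.0 TPM in NCI-H2228. Its difference was 1.26 ± 0.12 (adjusted p = 1.65e-05; 0.74 with a pseudocount of 5). ID2, a further BMP target, rose in both lines and differed by 0.99 ± 0.09. FST, which encodes the activin antagonist follistatin, fell in NCI-H3122 and was not called in NCI-H2228 (0.26), with a difference of -1.34 ± 0.20 (adjusted p = 0.000697; -0.59 with a pseudocount of 5).

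Of 15 Notch genes, 6 had larger and 2 smaller values (53.3% called, beside 14.3% of all genes). NOTCH3 differed by 0.55 ± 0.08 (adjusted p = 0.000334). The ligand gene DLL1 differed by 0.86 ± 0.12; it passed the filter in NCI-H3122 through TRI-611 alone, and its call was lost with a pseudocount of 5 (adjusted p = 0.192). Of 10 lung and gut lineage factors, 3 had larger and 3 smaller values, with a median of -0.02. SOX9, which marks distal lung progenitors, went from 32.1, 29.3 and 31.4 TPM to 11.3, 11.6 and 11.6 TPM in NCI-H3122 and was at 5.30, 5.05 and 6.91 TPM and 5.42, 6.34 and 5.78 TPM in NCI-H2228, where the groups overlapped. Its difference was -1.38 ± 0.13 (adjusted p = 1.36e-05). FOXA2, a pioneer factor of endoderm, fell in both lines and differed by -1.16 ± 0.11 (adjusted p = 2.1e-05; -0.77 with a pseudocount of 5). EHF, an epithelial ETS factor, rose in NCI-H3122 and fell in NCI-H2228, at 0.98 ± 0.07 (adjusted p = 1.94e-06). Of 19 epithelial genes, 6 had larger and 2 smaller values (42.1% called). OVOL2, which holds cells in an epithelial state, rose in NCI-H3122 from 13.0 ± 0.611 to 32.7 ± 1.19 TPM and was at 2.76 ± 0.123 and 3.56 ± 0.828 TPM in NCI-H2228 (SD, n = 3 each), a difference of 1.01 ± 0.15 (adjusted p = 0.000625).

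Of 22 STAT3 targets and SOCS genes, 3 had larger and 5 smaller values in NCI-H3122 (36.4% called, beside 14.3% of all genes). Of 11 NF-kB targets and chemokines, 1 had a larger and 4 smaller ones (45.5%). Of these 11, 3 (CSF2, CXCL8 and TNFAIP3) passed the filter in a line through only DMSO or only TRI-611. Among those 3, 1 was called, and such passage selects for a difference. LIF, a ligand of the gp130 receptor that acts through STAT3, went from 19.3, 19.2 and 19.5 TPM to 4.09, 3.67 and 3.73 TPM in NCI-H3122 and from 14.4, 15.3 and 18.4 TPM to 10.6, 11.2 and 11.3 TPM in NCI-H2228. The difference was -1.58 ± 0.11 (adjusted p = 1.02e-06). LIFR, its receptor chain, moved the other way at 0.82 ± 0.13 (adjusted p = 0.00119; 0.50 with a pseudocount of 5). SOCS1, a feedback inhibitor of JAK kinases, was near 1 TPM in NCI-H3122 and fell from 22.4, 22.5 and 28.2 TPM to 10.3, 11.4 and 9.84 TPM in NCI-H2228. Its difference of 1.35 ± 0.31 (adjusted p = 0.0131) was not called with within-line pairs (adjusted p = 0.0741) or a pseudocount of 0.1 (adjusted p = 0.0784). SOCS3, named after its value was seen, fell in both lines and further in NCI-H2228, at 0.61 ± 0.08. IRF1, an interferon-induced factor, rose from 4.18, 3.84 and 4.20 TPM to 6.43, 7.67 and 6.61 TPM in NCI-H3122 and was at 20.3, 20.1 and 19.6 TPM and 17.4, 17.6 and 17.4 TPM in NCI-H2228, with a difference of 0.82 ± 0.09 (adjusted p = 7.64e-05; 0.55 with a pseudocount of 5). Of 19 interferon-stimulated genes, 5 had larger and 0 smaller values (26.3% called), while 0 of 15 genes of MHC class I presentation were called by limma in either direction (0 beside 14.3% of all genes).

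In 80 genes the responses themselves were opposed: 50 rose in NCI-H3122 and fell in NCI-H2228, and 30 fell in NCI-H3122 and rose in NCI-H2228, each by its own adjusted p under 0.05. ICAM1, an adhesion molecule for leukocytes, rose from 2.45, 2.09 and 2.64 TPM to 4.77, 5.51 and 5.18 TPM in NCI-H3122 and fell from 151, 148 and 156 TPM to 106, 106 and 103 TPM in NCI-H2228. The groups did not overlap in either line, the levels of the lines stayed far apart, and the difference was 1.38 ± 0.09 (adjusted p = 4.5e-07). DNAJB5, a co-chaperone gene, fell from 14.1, 13.9 and 13.4 TPM to 3.65, 3.00 and 3.01 TPM in NCI-H3122 and rose from 5.88, 6.65 and 7.36 TPM to 9.39, 8.23 and 8.03 TPM in NCI-H2228. At -2.14 ± 0.13 (adjusted p = 2.71e-07; -1.42 with a pseudocount of 5) it had the largest difference of the 80. SIK1B (1.18 ± 0.10, adjusted p = 6.55e-06) shares its sequence with a near-identical copy, SIK1, so reads could be split between them. LINP1, a long non-coding RNA of DNA end joining, differed by 1.17 ± 0.16 (adjusted p = 0.00033).

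Regulators of mRNA decay and a corepressor of EGR proteins were among the genes that fell in NCI-H3122 and rose in NCI-H2228. ZFP36L1, which targets AU-rich mRNAs for decay, went from 135, 129 and 141 TPM to 70.7, 67.2 and 65.5 TPM in NCI-H3122 and from 206, 209 and 231 TPM to 268, 258 and 275 TPM in NCI-H2228, a difference of -1.29 ± 0.07 (adjusted p = 1.3e-07). ZFP36, its relative, was opposed as well at -0.64 ± 0.08 (adjusted p = 0.00016). Of 16 regulators of mRNA decay, 5 had smaller and 2 larger values (43.8% called, beside 14.3% of all genes). NAB2, a corepressor that EGR1 induces and that represses EGR1, went from 89.4, 81.6 and 79.0 TPM to 50.1, 48.7 and 46.4 TPM in NCI-H3122 and from 68.3, 68.7 and 71.2 TPM to 93.3, 97.5 and 89.8 TPM in NCI-H2228. Its difference was -1.20 ± 0.07 (adjusted p = 2.43e-07). SLC38A2, a glutamine and alanine transporter that cells raise when amino acids are short, went from 286, 279 and 294 TPM to 215, 217 and 214 TPM in NCI-H3122 and from 108, 102 and 102 TPM to 186, 163 and 182 TPM in NCI-H2228, at -1.17 ± 0.07 (adjusted p = 1.44e-07). Of 28 genes of the integrated stress response, 7 had larger and 3 smaller values (35.7% called, beside 14.3% of all genes). ATF4, its central factor, was at 0.09 and ASNS at 0.13, neither called. ZBED2, a zinc-finger gene, completed the 5 largest at -1.11 ± 0.09 (adjusted p = 3.27e-06).

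**Figure D4:**
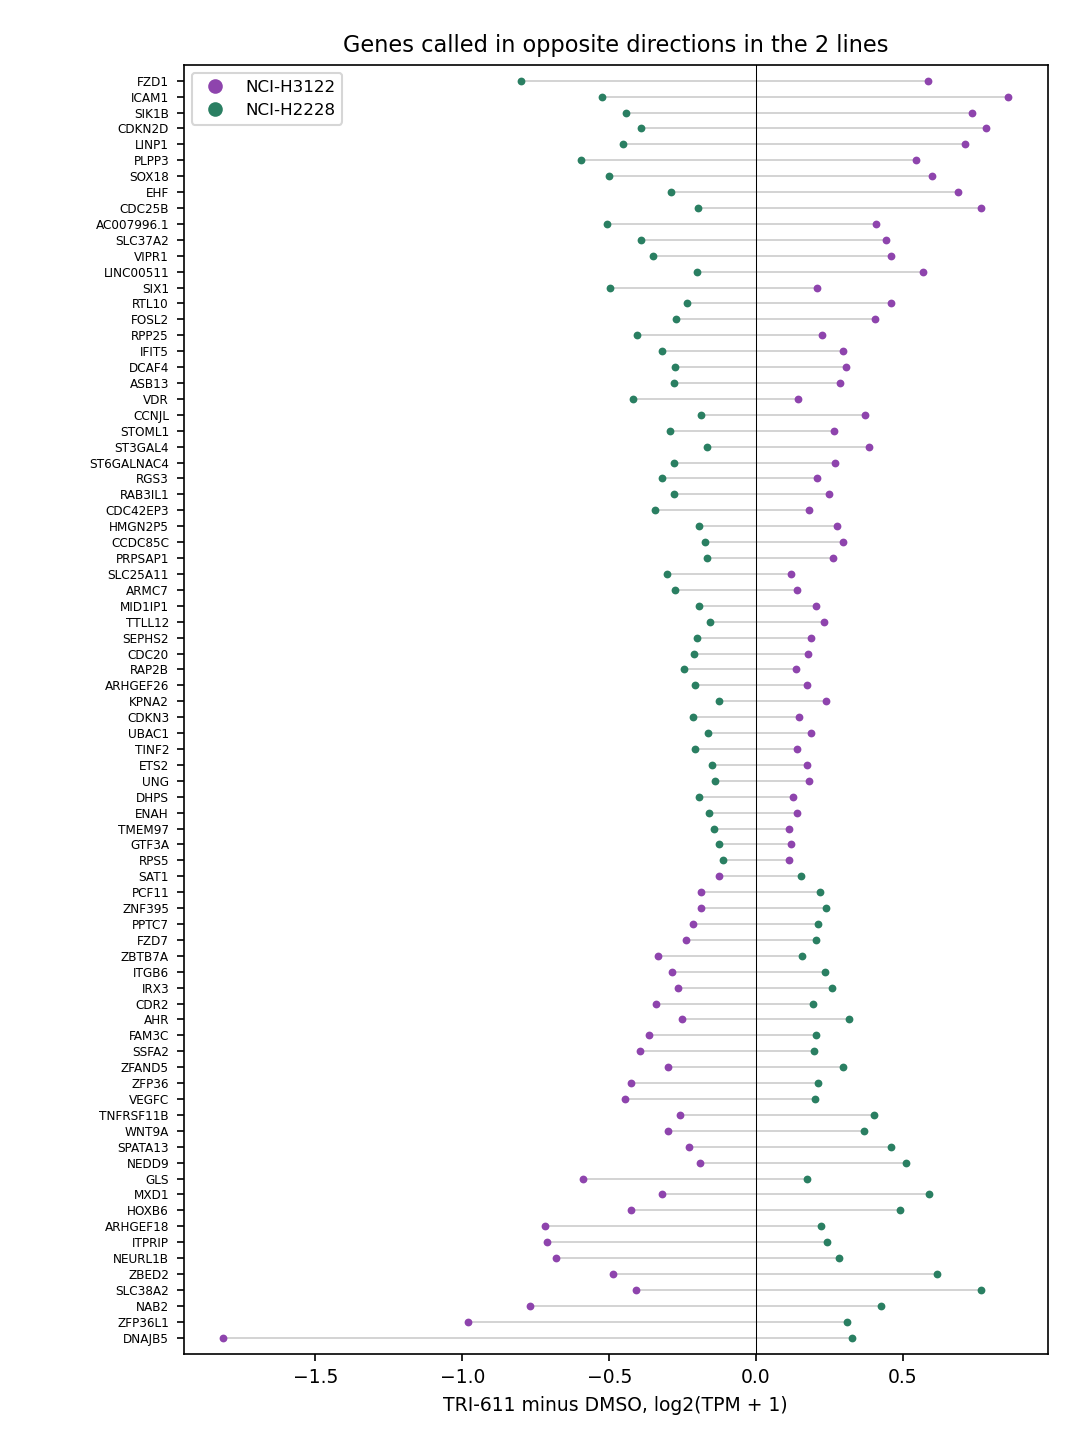
Responses to TRI-611 (log2(TPM + 1), x axis) in NCI-H3122 (purple) and NCI-H2228 (green) of the 80 genes called in opposite directions, ordered by the difference. FZD1, ICAM1 and SIK1B are at the top and DNAJB5, ZFP36L1 and NAB2 at the bottom; for most genes both responses are under 0.5 in size.

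Shares of called genes in lists of basic metabolism and protein turnover are given beside the 14.3% of all genes, with no test of that difference. Of 31 proteasome subunits, 0 had larger and 1 a smaller value (3.23% called), and of 24 genes of nucleotide synthesis 2 had larger values (8.33%). In the list of 13 mitochondrially encoded genes 0 were called by limma. The mitochondrial tRNA gene MT-TK, outside that list, was called at -1.93 (adjusted p = 0.022). Calls of cholesterol and fatty acid synthesis (15.6%), glycolysis (18.2%) and the unfolded protein response (16.7%) were near it. Among protein-coding genes alone the called share was 16.7%. Genes of MYC and ribosome biogenesis were lower in both lines by similar amounts: 36 of 43 fell in NCI-H3122 and 31 in NCI-H2228, while 4 had larger and 4 smaller values in the difference (18.6%) and its median was -0.05. SRM, spermidine synthase, differed by -0.40 ± 0.07 (adjusted p = 0.00151). Of 22 HIF targets, 6 had larger and 3 smaller values (40.9% called). ADM, which encodes adrenomedullin, differed by 0.76 ± 0.20, a call lost without DMSO batch 2 or 3 of NCI-H3122 or TRI-611 batch 2 of NCI-H2228 (adjusted p = 0.0532, 0.0539 and 0.0554). NDRG1, a stress-induced gene, differed by -0.53 ± 0.05, a call lost with all 18 libraries in the fit (adjusted p = 0.0831). VEGFA, the angiogenic factor on the HIF and STAT3 lists, fell in both lines and differed by -0.80 ± 0.07 (adjusted p = 4.2e-06).

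**Figure D5:**
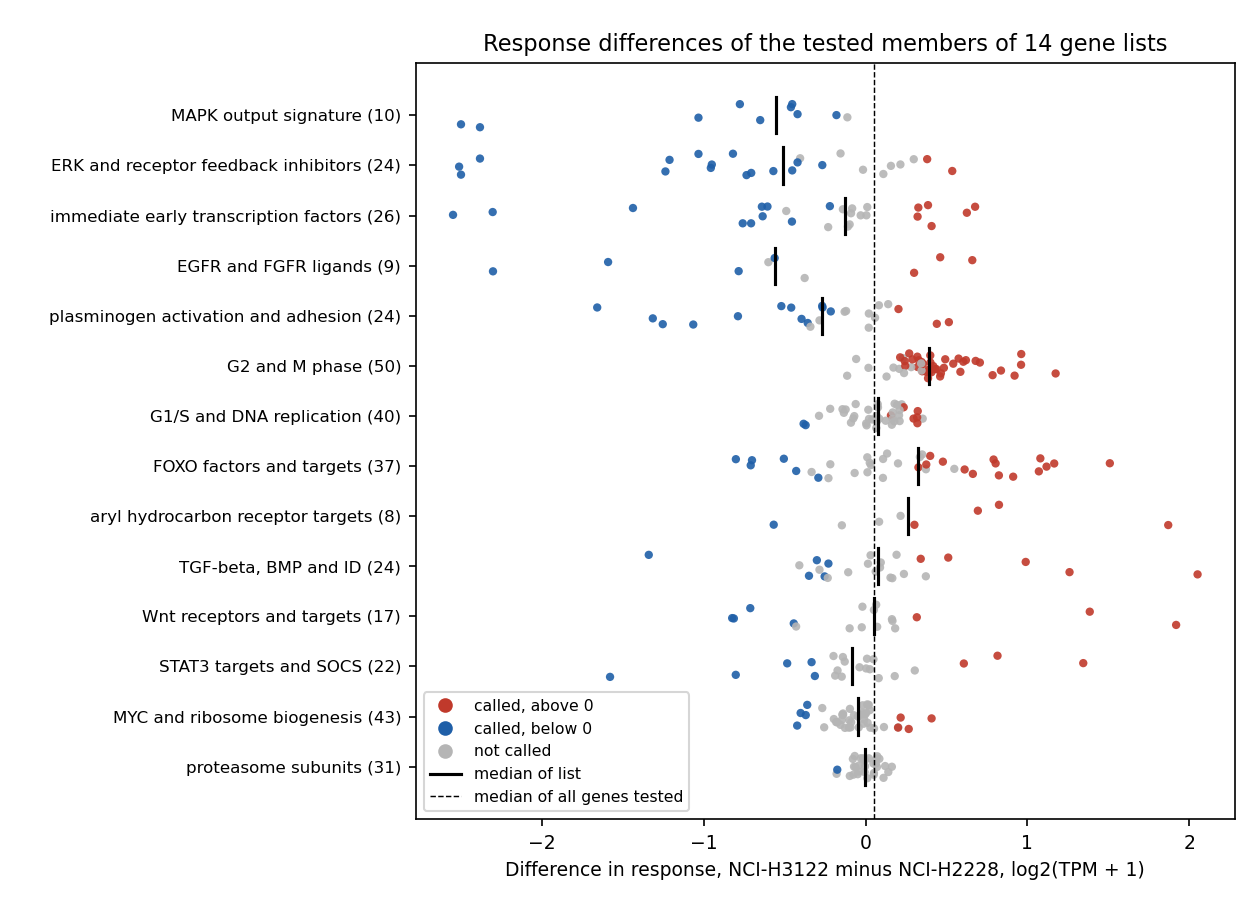
Difference in response (NCI-H3122 minus NCI-H2228, log2(TPM + 1), x axis) of each tested member of 14 gene lists, with the number of members in parentheses, the list's median as a black bar and the median of all genes tested as a dashed line. Feedback inhibitors and the MAPK signature lie to the left of the dashed line, G2 and M phase and FOXO genes to the right, and proteasome subunits on it.

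No difference was called for the targeted gene or for cereblon. ALK (ENSG00000171094, chromosome 2, 29192774 to 29921566) was at 17.3, 15.3 and 15.9 TPM with DMSO and 15.6, 14.8 and 14.8 TPM with TRI-611 in NCI-H3122, and at 11.1, 10.9 and 11.1 TPM and 10.7, 11.0 and 10.8 TPM in NCI-H2228. Its groups overlapped in both lines, and the difference of -0.07 ± 0.08 was not called (adjusted p = 0.609). EML4, whose promoter drives the fusion, was not called at 0.06 ± 0.06 (adjusted p = 0.553), and neither was CRBN, which encodes cereblon, at 0.25 ± 0.14 (adjusted p = 0.263), although its rise in NCI-H3122 passed at 0.34. A degrader acts on protein, so these RNA values do not check its effect on ALK. Of 14 tested genes of the cereblon ligase and its known substrates, IKZF2 (0.70 ± 0.12, adjusted p = 0.00152), DDB1 and ZFP91 were called. That share was 21.4%, beside 14.3% of all genes, with no test of the list. The calls of DDB1 (0.17 ± 0.05) and ZFP91 (-0.25 ± 0.07) were lost with within-line pairs, among other settings (adjusted p = 0.161 and 0.145).

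Some of the largest values belonged to short or low-TPM transcripts, whose libraries scattered. MIR3648-1 measured 5.55, 8.12 and 14.0 TPM with DMSO and 0.812, 0 and 0 TPM with TRI-611 in NCI-H3122, and 0, 1.55 and 3.32 TPM and 2.27, 4.01 and 2.58 TPM in NCI-H2228. With TRI-611 all NCI-H3122 libraries lay below 1 TPM, so it passed the filter there through its DMSO libraries alone, which selects for a negative difference. Its difference of -3.78 ± 0.72, the largest in size of all called genes, moved between -7.22 and -1.68 with pseudocounts of 0.1 and 5. MIR138-1 was listed at 0 in all DMSO libraries of NCI-H3122 and so passed the filter there through TRI-611 alone, and its difference of 2.18 ± 0.52 was not called with a pseudocount of 5 (adjusted p = 0.0925). SNORA60, SNORA51, VN1R83P, AC099489.2 and MT-TK had adjusted p of 0.0384, 0.048, 0.0284, 0.0255 and 0.022, and each lost its call when any of several single libraries was left out. AC099489.2 also passed the filter in NCI-H3122 through its TRI-611 libraries alone. RN7SL192P lost its call with within-line pairs (adjusted p = 0.0668). Mature microRNAs and snoRNAs carry no poly-A tail, so these values need not stand for the mature molecules. In all, 168 of the 13878 genes passed the filter in a line through only DMSO or only TRI-611, 38 of them called and 13 of the 130 past a size of 1. Restricted to the 11151 protein-coding genes of the fit, 1863 (16.7%) were called.

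The size of the difference went with the DMSO level. Of the 65 genes lower by 1 or more, 33.8% had a DMSO level at least 2-fold higher in NCI-H3122, beside 10.3% of all genes tested. Of the 65 higher by 1 or more, 56.9% had a DMSO level at least 2-fold higher in NCI-H2228, beside 21.1% of all genes. DUSP6, CYP1A1 and MMP1 had the higher DMSO level in NCI-H3122, and FZD2, ATOH8 and ICAM1 in NCI-H2228. SPRY4, EGR1, THBS1, CDC25C and TSC22D3 had DMSO means within 2-fold of each other. The DMSO libraries enter both the level and the difference, so the relation is a description.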

How the data were processed

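RNA-seq values of 12 libraries were used: NCI-H3122 and NCI-H2228, each with DMSO or TRI-611 in batches 1 to 3. The authors deposited 1 table of TPM (transcripts per library, scaled to a fixed sum) for 57500 Ensembl genes, so no read totals were known here. GRCh38, STAR 2.5.2b, featureCounts, Subread 1.5.2, fastp 0.23.1 and DESeq2 are listed in the submitters' processing notes. Not given in the sources used here were the annotation release, strand setting and use of molecular identifiers, so overlapping and antisense genes may share reads. The library kit used poly-A RNA, per the labels' protocols.

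TPM was taken to log2(TPM + 1), genes reaching 1 TPM in at least 3 of the 6 libraries of each line were kept, and limma 3.58.1 (R 4.3.3) fitted the 4 group means with trended, robust empirical Bayes variances. The contrast was the TRI-611 minus DMSO value of NCI-H3122 less that of NCI-H2228, called at a Benjamini-Hochberg adjusted p under 0.05 over all 13878 genes. Errors after ± are standard errors for differences and SD for TPM means. A log2(TPM + 1) difference understates changes of low genes. The script was tested on simulated data.

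The labels give each library a batch number, so same-numbered libraries were treated as paired in alternative fits. Deviations of same-batch DMSO and TRI-611 libraries correlated at -0.12, -0.05 and 0.04 in NCI-H3122. Those of NCI-H2228 correlated at 0.10, 0.01 and 0.09. One fit added the batch as a block ("replicate block"). Another subtracted same-batch pairs within each line ("within-line pairs").

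Named genes were ALK, EML4 and CRBN, the 12 largest differences in each direction, up to 3 called members per list by size, and the 5 largest opposed genes in each direction. The 12 largest were called genes of 1 sign in all 3 batches, with a group mean of 1 TPM or more in each line. Others were named after their values were seen. The genes and the 44 lists were chosen with earlier results of these data known. Promoter sequences came from RefSeq, and gene types and positions from GENCODE 29 where the ID was found (56898 IDs). Figures were drawn with matplotlib 3.10.9.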

Additional observations from a re-analysis of the deposited data

Results flagged for a closer look

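The genes given here were called for a difference in response to TRI-611 by the limma test at an adjusted p under 0.05. They are those with the 12 largest values in each direction and the 5 largest opposed genes each way. All values are NCI-H3122 minus NCI-H2228 on log2(TPM + 1). The 12 smallest were MIR3648-1 at -3.78, EGR1 at -2.55, DUSP5 at -2.51, DUSP6 at -2.50, SPRY4 at -2.38, FOSL1 at -2.31, AREG at -2.30, RASD1 at -2.22, DNAJB5 at -2.14, MT-TK at -1.93, KRTAP2-3 at -1.81 and RGCC at -1.75. The 12 largest were SNORA60 at 2.39, MIR138-1 at 2.18, ATOH8 at 2.05, VN1R83P at 2.00, FZD2 at 1.92, CYP1A1 at 1.87, SNORA51 at 1.87, AC099489.2 at 1.68, SLC29A3 at 1.67, RN7SL192P at 1.67, HEG1 at 1.65 and DBP at 1.61. Further opposed genes were FZD1 at 1.39, ICAM1 at 1.38, SIK1B at 1.18, CDKN2D at 1.18, LINP1 at 1.17, ZFP36L1 at -1.29, NAB2 at -1.20, SLC38A2 at -1.17 and ZBED2 at -1.11. MIR3648-1, SPRY4, MIR138-1, ATOH8 and AC099489.2 passed the filter in NCI-H3122 through DMSO or TRI-611 alone, which selects for the sign of their differences. SNORA60, SNORA51, VN1R83P, AC099489.2 and MT-TK lost their calls when any of several single libraries was left out. RN7SL192P lost its call with within-line pairs.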

How the results depend on the processing

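Against the 1988 calls, 1247 larger and 741 smaller in NCI-H3122, the batch as a replicate block gave 1802 and within-line pairs gave 1169 (727 and 442). Median-ratio scaling raised the calls of smaller values to 1143, as it moved the median difference from 0.05 to 0.01. A minimum difference of 0.5, which is a stricter null hypothesis, left 110 calls (44 and 66), with 4 of G2 and M phase, 8 of the feedback inhibitors, 3 of the MAPK signature, 3 of FOXO, 4 of plasminogen activation and 4 of the immediate early factors. Without 1 library, 1548 to 1953 genes were called, 918 to 1231 larger and 566 to 757 smaller. The list counts then ranged from 32 to 39 for G2 and M phase, 13 to 15 for feedback inhibitors, 8 to 9 for the MAPK signature, 15 to 16 for FOXO, 11 to 13 for plasminogen activation and 8 to 10 for immediate early factors. With the replicate block these were 37, 13, 9, 15, 14 and 9. Of the 136 genes under the naming rule, 133 were called, 98 kept their side of the threshold in all 26 alternatives apart from the minimum, and 0 changed sign. Within-line pairs took the call from 27. TPM without read totals gives no counting error for low genes, and 3 libraries a group limit the power for small differences.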

Other observations

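Several of the largest differences fell outside the gene lists. RASD1, a small RAS-related GTPase that is induced by glucocorticoids, stood at 57.4, 50.8 and 55.8 TPM with DMSO and 7.78, 10.9 and 8.65 TPM with TRI-611 in NCI-H3122, and at 15.0, 14.7 and 15.4 TPM and 13.4, 12.0 and 11.9 TPM in NCI-H2228. It fell in NCI-H3122, was not called in NCI-H2228, and differed by -2.22 ± 0.13 (adjusted p = 2.43e-07 by limma). TSC22D3, the glucocorticoid-induced gene described above, moved the other way at 1.51. RGCC, a regulator of the cell cycle, was at 5.37, 3.68 and 4.88 TPM and 5.24, 4.02 and 2.36 TPM in NCI-H3122, with overlapping groups, and rose from 3.13, 4.34 and 3.19 TPM to 10.9, 11.6 and 12.9 TPM in NCI-H2228. Its difference was -1.75 ± 0.28 (adjusted p = 0.00153), and -1.11 with a pseudocount of 5. KRTAP2-3, a keratin-associated protein gene, fell in NCI-H3122 from 12.6 ± 1.40 to 2.50 ± 1.01 TPM (SD, n = 3 each) and was under 3 TPM in NCI-H2228, with a difference of -1.81 ± 0.34 (adjusted p = 0.00326) and -1.16 with a pseudocount of 5.

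In the other direction, SLC29A3, a nucleoside transporter of lysosomes, rose from 8.56, 8.45 and 9.12 TPM to 39.2, 37.5 and 39.7 TPM in NCI-H3122 and from 34.4, 30.5 and 32.7 TPM to 43.0, 44.7 and 38.9 TPM in NCI-H2228. The TRI-611 levels of the lines were close while the DMSO levels were apart, and the difference was 1.67 ± 0.08 (adjusted p = 8.4e-08). DBP, an output gene of the circadian clock, had DMSO levels near each other in the lines, 6.49, 6.10 and 6.43 TPM in NCI-H3122 and 7.29, 6.91 and 6.39 TPM in NCI-H2228. With TRI-611 it was at 23.1, 24.2 and 22.0 TPM in NCI-H3122 and 7.94, 7.67 and 6.87 TPM in NCI-H2228, a difference of 1.61 ± 0.10 (adjusted p = 3.44e-07). Of 16 clock genes 3 had larger and 1 a smaller value (4 of 16 called, beside 14.3% of all genes), with a median of 0.03. HEG1, a junction protein, rose from 1.27, 0.958 and 1.21 TPM to 5.54, 6.08 and 8.31 TPM in NCI-H3122 and was at 61.9, 59.5 and 65.6 TPM and 68.9, 68.8 and 72.6 TPM in NCI-H2228, with a difference of 1.65 ± 0.15 (adjusted p = 1.25e-05) that shrank to 0.76 with a pseudocount of 5.

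The third line, SNU2535, was set beside the other lines by its own mean response, with no test. Among the 741 genes with smaller values in NCI-H3122, its response lay nearer that of NCI-H3122 in 53.4%, and among the 1247 with larger values in 21.0%, beside 43.1% of all genes tested. Past a size of 1, SNU2535 lay nearer NCI-H3122 in 41.5% of the 65 genes with smaller values and in 20.0% of the 65 with larger ones. Its median response over the 741 was -0.28, between -0.48 in NCI-H3122 and -0.04 in NCI-H2228. Over the 1247 it was 0.07, between 0.44 and 0.01. The members were chosen on the responses of NCI-H3122 and NCI-H2228, which makes those medians a description.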
